A study of Mus musculus with 10 samples.

Results

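Fatty acid oxidation, ketone body synthesis and the targets of the nuclear receptor PPARalpha were examined in livers of mice that lack both macroH2A histone variants. The set held 45 genes, chosen by name from textbook knowledge of the pathway and with earlier results of these data known. Of these, 42 were measured by at least 1 probe set that names no other gene, and where a gene had several the brightest on average stood for it. Acot8 lay only on a probe set shared with another gene, and Acsl1 and Ucp2 were not on a named probe set used here. On the whole array 22180 genes were measured in this way.

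The data were log2 expression levels from 10 arrays, 5 of wild-type livers and 5 of macroH2A1 macroH2A2 double knockout livers. All animals were male mice of the strain 129/S6 (taconic), 2 months old, kept on low fat chow and fasted overnight for about 16 h before they were killed in the morning. Every liver was fasted, so the comparison concerns levels after a fast and not the response to it. The labels do not name a promoter, a Cre line or the deleted exons, and do not say in words that the samples are separate animals. If some shared an animal, the p-values measure technical spread.

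Fasting sends fatty acids from adipose tissue to the liver. There they are joined to coenzyme A, carried into mitochondria on carnitine and shortened by beta-oxidation, and much of the resulting acetyl-CoA leaves the liver as ketone bodies. Very long and branched fatty acids are first shortened in peroxisomes. PPARalpha, which is activated by fatty acids, switches on genes at nearly every one of these steps. MacroH2A proteins are variants of histone H2A with a large additional domain and are best known from silent chromatin.

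Most members had similar means in the 2 genotypes. In limma, 0 of the 42 measured members passed an adjusted p under 0.05 (Benjamini-Hochberg over all 25335 annotated probe sets), where 0.884% of all probe sets passed. Of the members, 21 (50%) had a higher and 21 a lower mean in double knockout livers, beside 48.5% of all probe sets with a higher mean. The median difference was 0.001 on the log2 scale, against -0.003 over all probe sets tested, and the median size of a difference was 0.05, against 0.06. At an unadjusted p under 0.05 there were 8 members (19% of 42), 5 higher and 3 lower, beside 15.1% of all probe sets (7.52% higher and 7.6% lower) and 19.5% of the 14078 probe sets above background. The members' share was thus near the background. Background was taken as the 95th percentile of 1108 olfactory receptor probe sets, 6.54, and 41 of the 42 members lay above it.

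The intervals were narrow for most members. The 95% interval of the difference lay inside ±0.25 on the log2 scale, a width chosen after values were seen, for 30 of 42 members (71.4%). This share was near the 73.5% of all probe sets and the 70.6% of those above background. All 10 measured enzymes of mitochondrial beta-oxidation were among these 30, as were all 4 genes of the carnitine shuttle and all 3 genes of electron transfer. Hadhb, one of the 10 enzymes, was included only narrowly, with an interval from -0.24 to 0.22. The largest differences were those of Pdk4, Vnn1, Slc16a1, Ehhadh and Acot1, all higher in double knockout livers, and none of them passed the adjusted threshold.

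**Figure D1:**
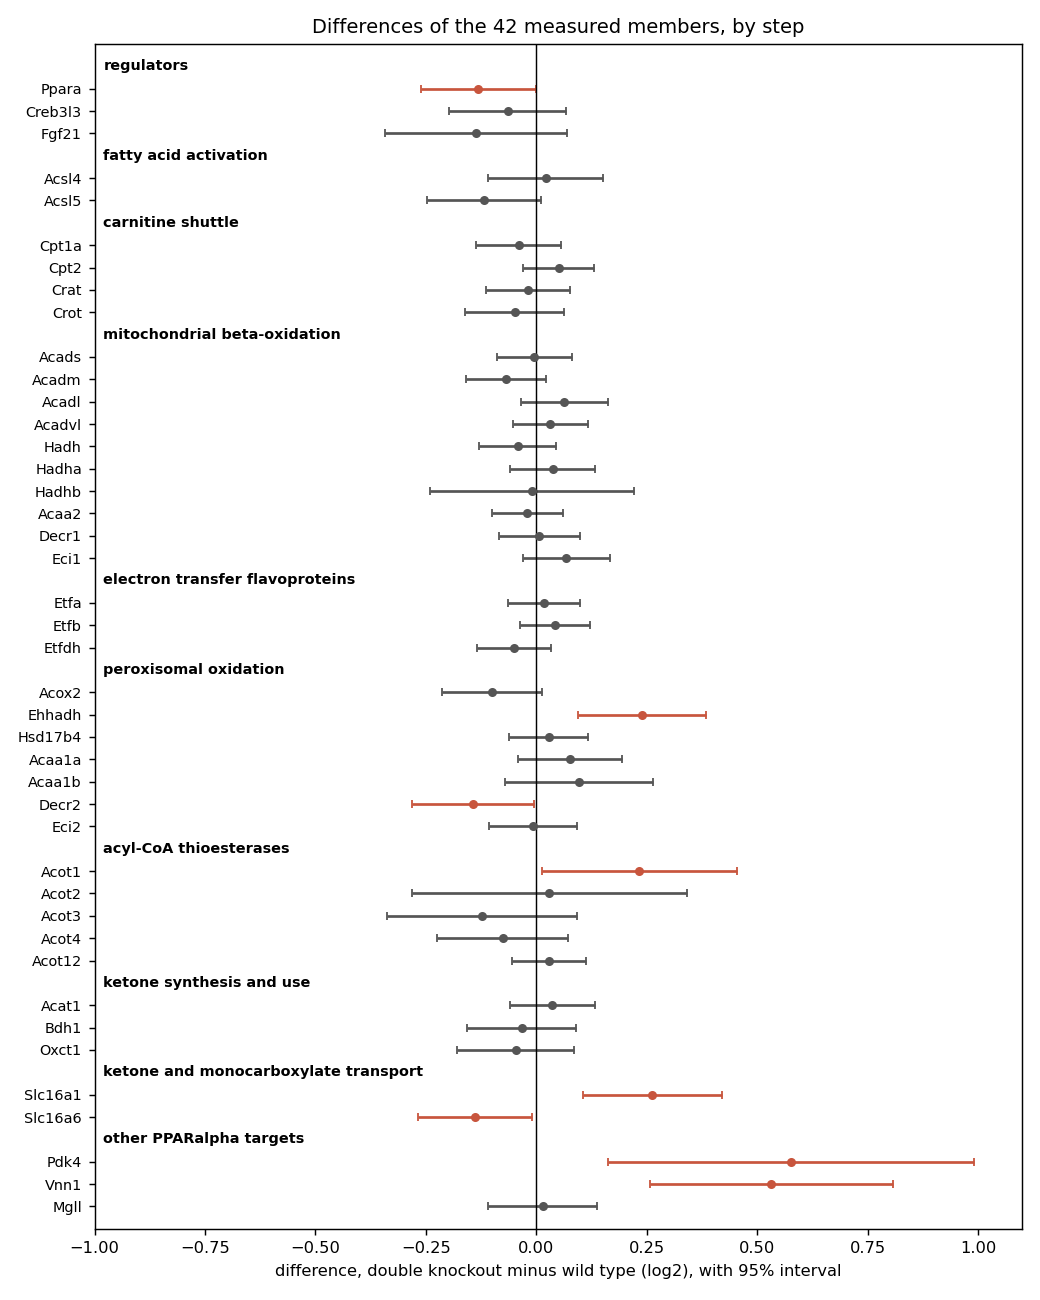
Difference of each of the 42 measured members (double knockout minus wild type, log2 scale) with its 95% interval from limma, grouped by step; red marks the 8 members with an unadjusted p under 0.05. Most intervals lie within ±0.25 of 0, and Pdk4 (0.58) and Vnn1 (0.53) stand farthest out.

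The macroH2A1 probe set was lower in every double knockout array but kept signal above background there. Its probe set stood at 9.51 to 9.66 in wild-type and 9.02 to 9.18 in double knockout arrays, which differ by -0.49 (limma adjusted p = 0.00128). The macroH2A2 probe set lay below background on average in both groups. Hepatocyte markers lay at list means of 13.26 to 13.32 in wild-type and 13.25 to 13.28 in double knockout arrays, and 12 of 12 were above background. Macrophage markers had higher means in double knockout livers for 15 of 15 genes, beside 48.5% of all probe sets. Their list means were 8.79 to 9.10 in wild-type and 9.02 to 9.35 in double knockout arrays, with 0 genes below background. Of the 15, 2 passed the adjusted threshold, beside 0.884% of all probe sets. Endothelial markers had higher means for 8 of 10 genes (0 passed), stellate cell markers for 5 of 10 (0 passed) and cholangiocyte markers for 5 of 6 measured genes (1 passed). Pancreas markers (9 measured, 3 below background) had list means from 5.90 to 9.95 in wild-type and from 5.87 to 8.19 in double knockout arrays. Adipocyte markers (5 measured, 4 below background, Adipoq and Lep among them) had list means of at most 6.19 and 6.13. Muscle markers (9 measured, 6 below background, Ckm among them) had list means of 5.92 to 6.23 and 6.03 to 6.07. In whole tissue, fewer cells of a type and less RNA per cell cannot be told apart.

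The regulators came first in the order of the pathway. Ppara itself stood at 11.32, 11.10, 11.09, 11.12 and 11.32 in wild-type replicates 1 to 5 and at 11.15, 11.04, 11.04, 10.99 and 11.07 in double knockout replicates 1 to 5. Wild-type replicates 1 and 5 were the highest, and double knockout replicate 1 lay above 3 wild-type arrays. The difference was -0.13 (SE 0.06, limma adjusted p = 0.322), a ratio of 0.913 with a 95% interval of 0.835 to 0.999. Adjusted for the macrophage marker mean, which itself differed between the groups, it was -0.06 (SE 0.08).

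Fgf21, a fasting hormone of the liver and a PPARalpha target, stood at 9.35, 9.50, 9.31, 9.14 and 9.42 in wild-type arrays. In double knockout arrays it stood at 8.98, 9.20, 9.39, 9.04 and 9.43. The groups overlapped over most of their range, with a difference of -0.14 (SE 0.09, limma adjusted p = 0.553). Adjusted for the macrophage marker mean, the difference turned to 0.01 (SE 0.13). Creb3l3, a transcription factor that acts with PPARalpha on Fgf21, had a difference of -0.07 (limma adjusted p = 0.68). All 3 regulators had lower means without this adjustment, and 0 of 3 passed.

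Fatty acids are activated by acyl-CoA synthetases. Acsl5 stood at 11.90, 11.72, 11.67, 11.78 and 11.57 in wild-type and at 11.62, 11.69, 11.60, 11.59 and 11.56 in double knockout arrays. The wild-type arrays were more widely spread, and the difference was -0.12 (SE 0.06, limma adjusted p = 0.378). Acsl4, which prefers arachidonic acid, had a difference of 0.02 (SE 0.06).

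Cpt1a, which attaches carnitine to the fatty acid and is the gate of mitochondrial oxidation, was at 13.05, 13.10, 13.11, 13.02 and 12.99 in wild-type arrays. The double knockout arrays were at 13.05, 13.06, 13.04, 12.90 and 13.03. Apart from the low double knockout replicate 4, both groups covered the same levels. The ratio was 0.973, with a 95% interval of 0.91 to 1.04 (log2 difference -0.04, SE 0.04, limma adjusted p = 0.744).

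Cpt2, which hands the fatty acid back to coenzyme A inside the mitochondrion, stood at 12.82, 12.86, 12.76, 12.79 and 12.76 in wild-type arrays. Its double knockout levels were 12.86, 12.81, 12.86, 12.86 and 12.84. These sat at the upper end of the wild-type range, with a difference of 0.05 (SE 0.04, limma adjusted p = 0.579). Crat, the carnitine acetyltransferase, had -0.02 on its main probe set and 0.01 on its second. Crot, its counterpart for medium chains in peroxisomes, had -0.05.

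The 10 measured enzymes of mitochondrial beta-oxidation split evenly, 5 with higher and 5 with lower means. Their differences ran only from -0.07 to 0.07. Acadm, the medium-chain acyl-CoA dehydrogenase, had the lowest p among them. It stood at 13.60, 13.54, 13.45, 13.53 and 13.46 in wild-type and at 13.43, 13.47, 13.42, 13.43 and 13.50 in double knockout arrays. The wild-type arrays tended to lie higher but the groups overlapped, with a difference of -0.07 (SE 0.04, limma adjusted p = 0.483) and a ratio of 0.953 (95% interval 0.895 to 1.02).

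The dehydrogenases for other chain lengths had differences of -0.005 for Acads (short), 0.06 for Acadl (long) and 0.03 for Acadvl (very long). Hadha and Hadhb are the subunits of the trifunctional protein, which carries out the later steps on long chains. Hadha had a difference of 0.04 and Hadhb one of -0.01. Hadhb was also the member with the widest spread in double knockout livers, at 7.74, 8.43, 8.30, 8.02 and 8.27, while its wild-type arrays lay between 8.08 and 8.21. Hadh, the dehydrogenase for shorter chains, had -0.04, and the thiolase Acaa2 had -0.02. Decr1 and Eci1, which handle unsaturated fatty acids, had 0.007 and 0.07.

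Electrons of the acyl-CoA dehydrogenases pass through the electron transfer flavoprotein, made of Etfa and Etfb, to Etfdh. Etfdh stood at 12.55, 12.59, 12.54, 12.54 and 12.46 in wild-type arrays and at 12.48, 12.47, 12.52, 12.46 and 12.49 in double knockout arrays. Wild-type replicate 5 was the lowest of all 10 arrays, and the other wild-type arrays lay above every double knockout array. The difference was -0.05 (SE 0.04, limma adjusted p = 0.59). Etfa had 0.02 and Etfb 0.04, each with an SE of 0.04.

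In the peroxisome, members differed in direction, with 4 higher and 3 lower. Ehhadh, the bifunctional enzyme of the straight-chain route and a widely used PPARalpha target, stood at 13.22, 13.22, 12.94, 13.03 and 12.96 in wild-type arrays. In double knockout arrays it stood at 13.31, 13.22, 13.29, 13.42 and 13.33. Wild-type replicates 1 and 2 reached the lowest double knockout array, and the other 3 wild-type arrays lay clearly below. The ratio was 1.18 with a 95% interval of 1.07 to 1.30 (log2 difference 0.24, SE 0.07, limma adjusted p = 0.117).

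Decr2, the peroxisomal dienoyl-CoA reductase, went the other way. Its levels were 13.02, 12.97, 12.87, 12.78 and 12.82 in wild-type and 12.92, 12.70, 12.75, 12.76 and 12.62 in double knockout arrays. Only double knockout replicate 1 lay inside the wild-type range. The difference was -0.14 (SE 0.06, limma adjusted p = 0.312), and -0.05 (SE 0.09) when adjusted for the macrophage marker mean. Without the 4 arrays richest in pancreas markers (wild-type replicates 4 and 5 and double knockout replicates 1 and 2) it was -0.24 (SE 0.07).

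Acox2, the oxidase for bile acid precursors, stood at 12.05, 12.15, 12.14, 11.98 and 11.94 in wild-type arrays. Its double knockout levels were 11.95, 11.87, 12.03, 11.94 and 11.97, within or below the wild-type range. The difference was -0.10 (SE 0.05, limma adjusted p = 0.391). The thiolases Acaa1a and Acaa1b, close relatives in sequence, had 0.08 and 0.10. Whether the probe sets separate the 2 was not tested. Hsd17b4, the bifunctional enzyme of the branched-chain route, had 0.03, and the isomerase Eci2 had -0.007.

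Acyl-CoA thioesterases release free fatty acids from coenzyme A. Acot1, the cytosolic enzyme of long chains, stood at 10.20, 9.97, 9.58, 9.85 and 9.86 in wild-type arrays. In double knockout arrays it stood at 10.03, 10.11, 10.04, 10.09 and 10.36. Wild-type replicate 1 lay above 4 of the 5 double knockout arrays, and the other 4 wild-type arrays lay below all of them. The difference was 0.23 (SE 0.10, limma adjusted p = 0.299). It was 0.38 (SE 0.14) when adjusted for the macrophage marker mean and 0.13 (SE 0.13) when adjusted for the olfactory receptor mean.

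Acot2, the mitochondrial relative of Acot1, was spread widely among the wild-type arrays, with similar group means. Its wild-type levels were 11.81, 11.77, 11.10, 11.21 and 11.21, so that replicates 1 and 2 stood apart from the other three. The double knockout levels of 11.43, 11.51, 11.19, 11.64 and 11.48 lay mostly between these, with a difference of 0.03 and a 95% interval from -0.28 to 0.34. Acot3 had -0.12, and Acot4 had -0.08 on its main and -0.05 on its second probe set. Acot12, which hydrolyses acetyl-CoA in the cytosol, had 0.03. The genes Acot1 to Acot4 neighbour each other and are similar in sequence, and whether the probe sets separate them was not tested.

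**Figure D2:**
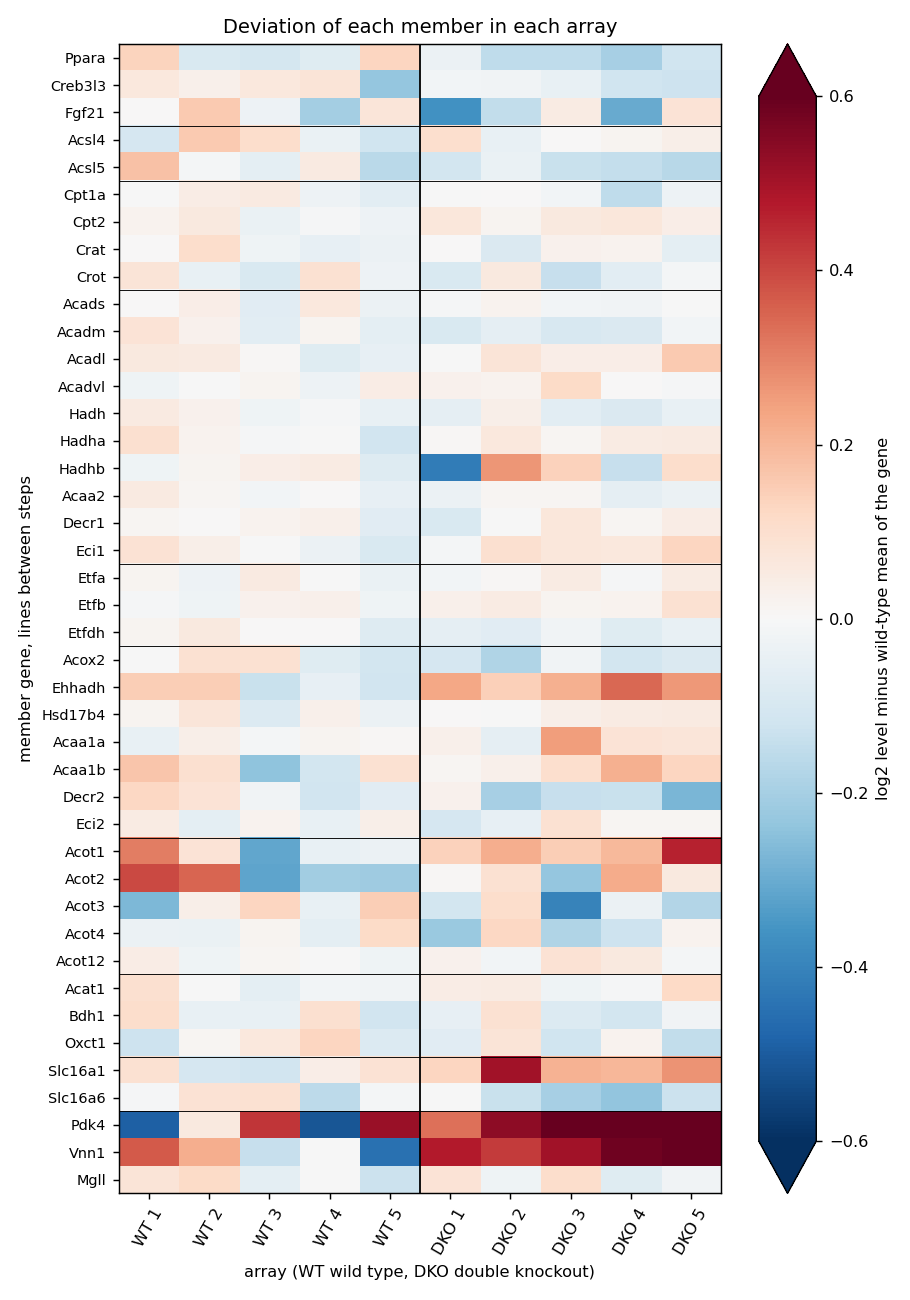
Each member's log2 level in each array minus its wild-type mean (colour, cut at ±0.6), for 5 wild-type (WT) and 5 double knockout (DKO) arrays, ordered by step. Most rows are pale. Pdk4, Vnn1 and Acot1 show strong colours in both groups, and Acot2 shows its strongest in wild-type arrays. Slc16a1, Hadhb, Acot3, Fgf21 and Ehhadh show their strongest in double knockout arrays.

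For ketone bodies, 3 enzymes were measured. Acat1, the mitochondrial thiolase that joins acetyl-CoA units, stood at 12.96, 12.87, 12.81, 12.85 and 12.85 in wild-type arrays and at 12.91, 12.92, 12.84, 12.86 and 12.99 in double knockout arrays. The groups overlapped throughout, with a difference of 0.04 (SE 0.04, limma adjusted p = 0.77).

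Bdh1, which converts acetoacetate to beta-hydroxybutyrate, stood at 11.22, 11.07, 11.07, 11.21 and 11.00 in wild-type arrays. Its double knockout levels were 11.06, 11.20, 11.03, 11.00 and 11.09. High and low arrays occurred in both groups, and the difference was -0.03 (SE 0.06, limma adjusted p = 0.843). Oxct1, which other tissues use to burn ketone bodies and hepatocytes are known to lack, was the member below background, with means of 6.37 and 6.32.

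Both transporters had an unadjusted p under 0.05, in opposite directions. Slc16a1, the monocarboxylate transporter MCT1 of lactate, pyruvate and ketone bodies, stood at 11.61, 11.42, 11.41, 11.56 and 11.61 in wild-type arrays. Its double knockout levels were 11.65, 12.03, 11.73, 11.72 and 11.79. Every double knockout array lay above every wild-type array, by a small margin for replicate 1, and replicate 2 was the highest. The ratio was 1.20 with a 95% interval of 1.07 to 1.34 (log2 difference 0.26, SE 0.07, limma adjusted p = 0.117).

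Double knockout replicate 2 also had the highest macrophage marker mean, 9.35. Adjusted for that mean the Slc16a1 difference was 0.14 (SE 0.10), and with the olfactory receptor mean as a covariate it was 0.16 (SE 0.09). Slc16a6, a related monocarboxylate transporter, stood at 7.77, 7.86, 7.87, 7.62 and 7.77 in wild-type arrays and at 7.78, 7.64, 7.58, 7.54 and 7.65 in double knockout arrays. Wild-type replicate 4 lay among the double knockout arrays, and double knockout replicate 1 among the wild-type arrays. The difference was -0.14 (SE 0.06, limma adjusted p = 0.29), and -0.05 (SE 0.08) when adjusted for the macrophage mean. Without the same 4 arrays as above it was -0.24 (SE 0.06).

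The remaining PPARalpha targets held the largest differences. Vnn1, the pantetheinase vanin-1, had the lowest p of all members. It stood at 12.13, 11.98, 11.62, 11.76 and 11.31 in wild-type arrays and at 12.24, 12.18, 12.26, 12.34 and 12.44 in double knockout arrays. The groups did not overlap, and wild-type replicates 1 and 2 came close to the double knockout arrays. The ratio was 1.45 with a 95% interval of 1.19 to 1.75 (log2 difference 0.53, SE 0.13, limma adjusted p = 0.0751).

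Pdk4 blocks pyruvate dehydrogenase and so spares glucose during fasting. Its wild-type levels were 10.39, 10.94, 11.31, 10.37 and 11.40, and its double knockout levels were 11.21, 11.42, 11.52, 11.55 and 11.59. Wild-type replicates 3 and 5 lay above the lowest double knockout array, while replicates 1 and 4 lay far below. The ratio was 1.49, with a wide 95% interval of 1.12 to 1.99 (log2 difference 0.58, SE 0.19, limma adjusted p = 0.178). Mgll, the monoacylglycerol lipase, had a difference of 0.01 (SE 0.06).

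**Figure D3:**
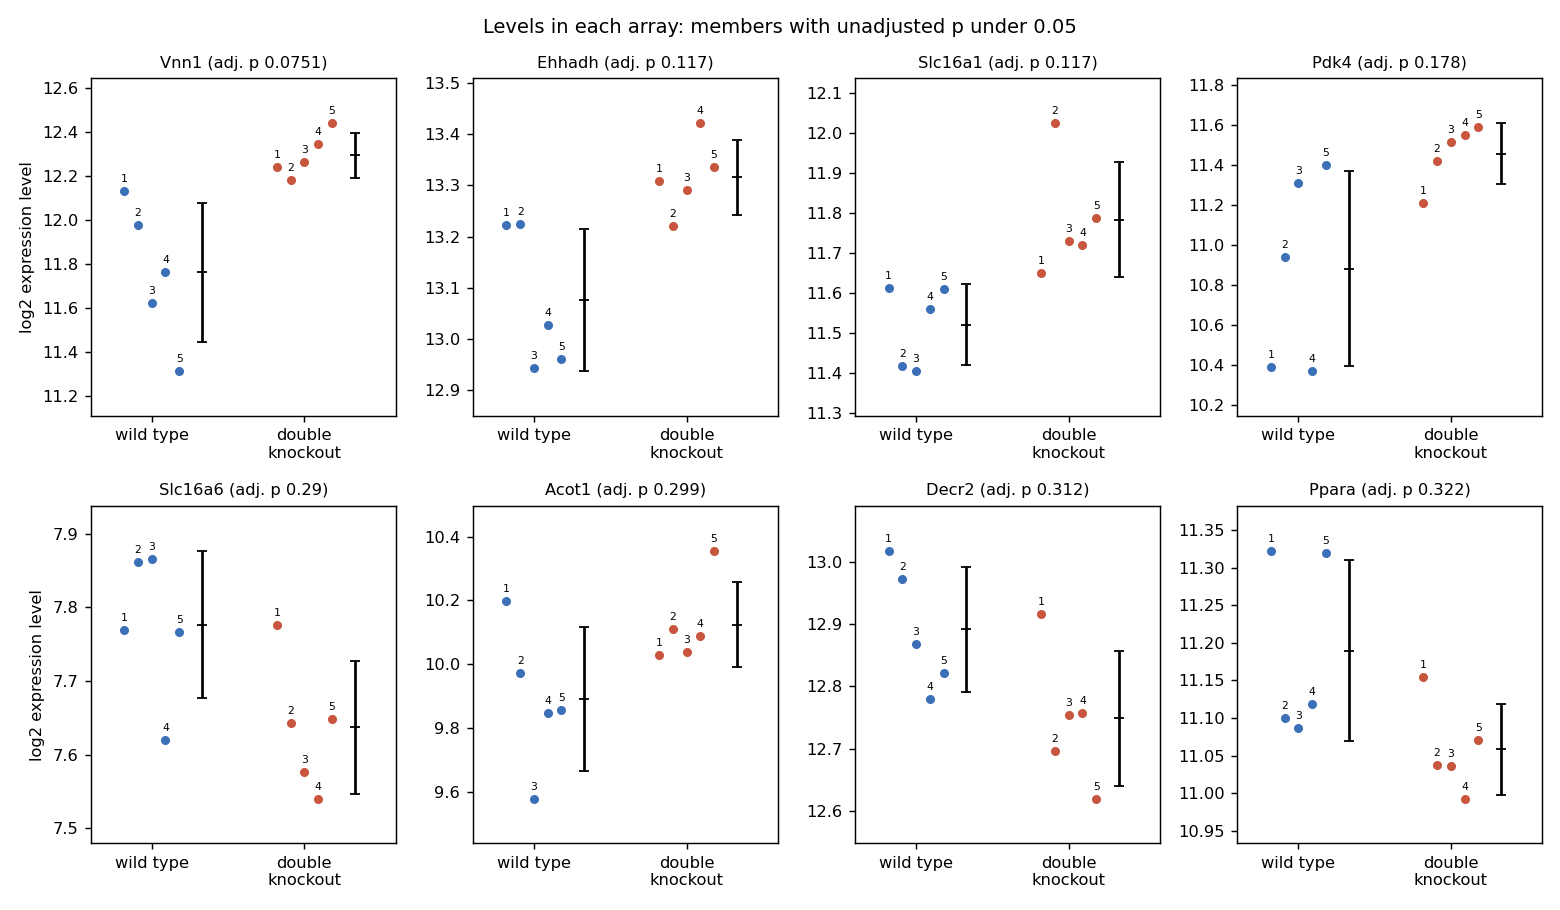
Log2 expression level in each array (points, numbered by replicate) for the 8 members with an unadjusted p under 0.05, with the group mean and SD (n = 5) to the right. The groups do not overlap for Vnn1 and Slc16a1, and the wild-type arrays of Pdk4 range from 10.37 to 11.40.

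Groups did not overlap for 2 of 42 members (4.76%), Vnn1 and Slc16a1, beside 3.90% of all probe sets (1.75% higher). The count of members with an unadjusted p under 0.05 moved with single arrays. It was 5 without wild-type replicate 1 or 3, and 4 without double knockout replicate 2, 4 or 5. Over all probe sets the share at this p was 13.0% to 14.4% in these fits, against 15.1% with all arrays. Vnn1 passed the adjusted threshold without wild-type replicate 1 (0.62, SE 0.11, limma adjusted p = 0.0362) and when adjusted for the pancreas marker mean (0.48, SE 0.10, limma adjusted p = 0.0491). Its limma adjusted p ranged from 0.0362 to 0.376 over 24 alternatives. Adjusted for the macrophage marker mean, which itself differed between the groups, Vnn1, Pdk4 and Ehhadh had 0.69 (SE 0.18), 0.70 (SE 0.28) and 0.35 (SE 0.09). Their limma adjusted p in that fit were 0.193, 0.388 and 0.172. With the olfactory receptor mean as covariate they had 0.41 (SE 0.16), 0.75 (SE 0.25) and 0.20 (SE 0.09). Without the 4 arrays richest in pancreas markers they had 0.44 (SE 0.12), 0.67 (SE 0.20) and 0.22 (SE 0.09).

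The members differed in how they varied among arrays of one genotype. The largest SD over wild-type arrays were 0.488 for Pdk4, 0.342 for Acot2, 0.317 for Vnn1 and 0.224 for Acot1, against a median of 0.0729 over the members. In double knockout arrays the SD of these 4 genes were 0.153, 0.167, 0.101 and 0.133, against a median of 0.0607. In all, 28 of 42 members had the larger SD in wild-type livers, and whether the spreads differ was not tested. Wild-type replicates 1 and 2 held the highest level of 16 members between them and the lowest of 0. Wild-type replicates 3 and 5 held the lowest level of 20 members. The counts of larger SD and of highest and lowest levels were not made for all probe sets. Whether they are particular to the members was therefore not tested.

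**Figure D4:**
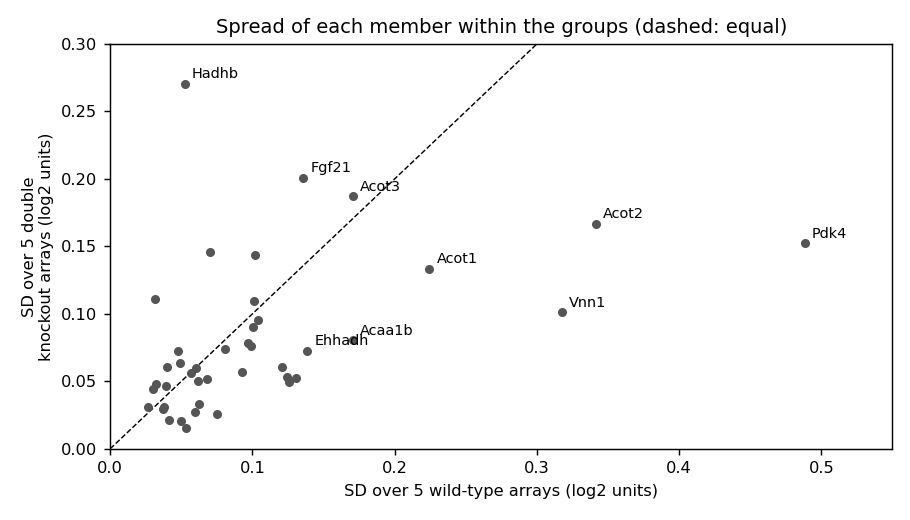
SD of each of the 42 members over the 5 wild-type arrays (x axis) and over the 5 double knockout arrays (y axis), in log2 units; the dashed line marks equal SD. Pdk4, Acot2, Vnn1 and Acot1 lie far to the right, and Hadhb lies highest.

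A further 75 genes of the same pathway were listed as a comparison, of which 66 were measured, 4 lay only on shared probe sets and 5 on no named probe set used here. Of the 66, 26 had higher and 40 lower means, 1 passed the adjusted threshold, and 10 (15.2%) had an unadjusted p under 0.05. Over all probe sets 48.5% had a higher mean, 0.884% passed and 15.1% had an unadjusted p under 0.05, so the last share is near the background. The median difference was -0.03. Among further genes of mitochondrial oxidation 12 of 13 had lower means, and 0 of 13 passed. Among lipid-handling PPARalpha targets 10 of 12 had higher means and 1 passed. Some of these differences were close to 0, such as -0.003 for Sirt3 and 0.0007 for Aldh3a2. In the other lists higher means were found for 4 of 9 regulators, 2 of 7 genes of entry and malonyl-CoA and 6 of 13 peroxisomal genes. They were found for 2 of 6 thioesterases and 1 of 6 genes of ketone bodies, and 0 passed in each of these lists.

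Cyp4a31, a microsomal fatty acid hydroxylase, was the gene that passed. It rose from 12.93, 13.04, 13.17, 12.90 and 13.09 in wild-type arrays to 13.29, 13.35, 13.24, 13.35 and 13.26 in double knockout arrays. The groups did not overlap, and the change was 0.27 on the log2 scale (SE 0.05, limma adjusted p = 0.045). The call was lost in 9 of the 10 fits that left out 1 array and was kept without wild-type replicate 3 (limma adjusted p from 0.0344 to 0.111 over these fits). Genes of this family are similar in sequence, and how far the probe set is specific was not tested.

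Bdh2, a short-chain dehydrogenase of the cytosol, stood at 7.86, 7.94, 7.88, 8.33 and 7.89 in wild-type arrays. Its double knockout levels were 7.50, 7.25, 7.46, 7.66 and 7.66, all below the wild-type arrays. The difference of -0.47 (SE 0.10) had a limma adjusted p = 0.0526, and it ranged from 0.0343 to 0.251 over the alternatives. Without the 4 arrays richest in pancreas markers the difference was -0.30 (SE 0.07). Adjusted for the macrophage, pancreas or olfactory receptor mean it was -0.49 (SE 0.15), -0.47 (SE 0.10) and -0.43 (SE 0.14). Pparg, a relative of Ppara known for its role in fat storage, stood at 8.95, 8.82, 8.62, 9.10 and 8.97 in wild-type and 8.51, 8.75, 8.28, 8.52 and 8.42 in double knockout arrays. Double knockout replicate 2 lay within the wild-type range, and the difference was -0.40 (SE 0.10, limma adjusted p = 0.0846).

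Echs1, the mitochondrial enoyl-CoA hydratase for short chains, stood at 11.91, 11.90, 11.91, 11.76 and 11.83 in wild-type arrays. Its double knockout levels were 11.72, 11.67, 11.77, 11.67 and 11.61. The groups met at wild-type replicate 4, with a difference of -0.17 (SE 0.05, limma adjusted p = 0.104).

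**Figure D5:**
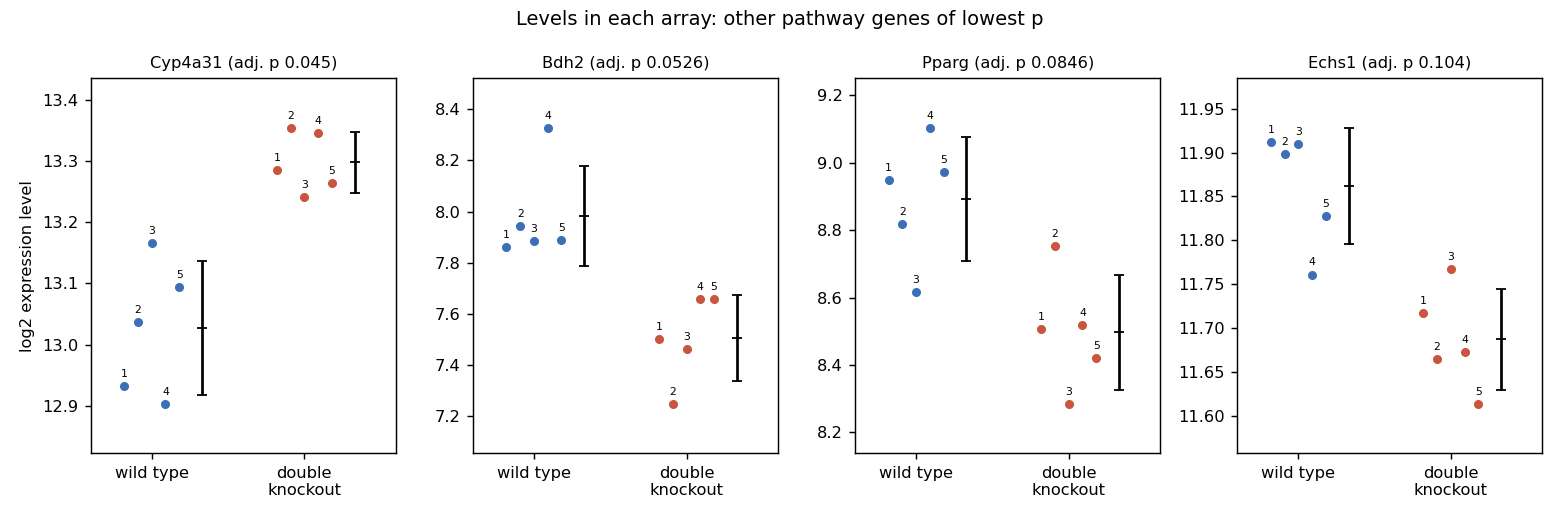
Log2 expression level in each array (points, numbered by replicate) for the 4 further pathway genes of lowest p, with the group mean and SD (n = 5) to the right. Cyp4a31 is higher in all 5 double knockout arrays, and Bdh2 is lower in all 5.

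PPARalpha binds DNA with a partner receptor at direct repeats spaced by 1 base. The 250 bases before the annotated start were searched on both strands for AGGTCANAGGTCA, allowing 2 mismatches outside the N. A promoter was held for 38 of the 45 members, in 44 windows, some genes having several starts. A match lay in 4 of these windows (9.09%), against 3.24% of 32851 windows of all genes, and an exact match in 0 of the 44. The matching genes were Acot12, Acot4, Etfa and Creb3l3. None of the 6 members with an unadjusted p under 0.05 and a promoter had a match, but with matches this rare 6 genes are too few for a comparison. Matches are letters in a window and not evidence of binding, and known sites of some of these genes lie outside such windows.

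Shown are the 3 matching promoters of members with a single start, Acot12, Acot4 and Etfa, beside those of Ehhadh and Slc16a1, the members of lowest p for which a promoter was held. Sequences are from RefSeq, build GRCm38.p6, written 5′ to 3′ on the strand of the gene. Capitals mark the match, which lies on the opposite strand in all 3 cases. It starts 110 bases before the start site in Acot12 (1 mismatch), 13 bases before it in Acot4 (2 mismatches) and 77 bases before it in Etfa (2 mismatches). The expression differences of these 3 genes were 0.03, -0.08 and 0.02. Ehhadh and Slc16a1, without a match, had 0.24 and 0.26, but they were shown because of their low p. Their larger differences thus follow from the choice and say nothing about the match.
Acot12, chr13:91741271-91741520, plus strand: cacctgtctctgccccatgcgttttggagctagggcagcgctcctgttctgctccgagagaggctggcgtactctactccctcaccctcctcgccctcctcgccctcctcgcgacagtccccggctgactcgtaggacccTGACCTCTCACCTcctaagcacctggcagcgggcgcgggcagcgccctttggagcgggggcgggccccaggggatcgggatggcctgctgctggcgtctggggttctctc
Acot4, chr12:84038129-84038378, plus strand: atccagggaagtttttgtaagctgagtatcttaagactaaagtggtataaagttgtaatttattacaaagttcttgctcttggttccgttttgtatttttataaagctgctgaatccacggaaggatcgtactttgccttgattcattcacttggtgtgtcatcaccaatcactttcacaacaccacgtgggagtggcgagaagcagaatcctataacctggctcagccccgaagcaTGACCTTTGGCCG
Etfa, chr9:55512244-55512493, minus strand: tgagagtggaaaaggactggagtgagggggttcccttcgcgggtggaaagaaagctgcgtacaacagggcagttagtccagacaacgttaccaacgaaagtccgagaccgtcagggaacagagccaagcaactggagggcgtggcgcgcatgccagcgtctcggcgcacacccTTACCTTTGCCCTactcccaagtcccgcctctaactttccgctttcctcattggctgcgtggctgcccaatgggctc
Ehhadh, chr16:21787835-21788084, minus strand: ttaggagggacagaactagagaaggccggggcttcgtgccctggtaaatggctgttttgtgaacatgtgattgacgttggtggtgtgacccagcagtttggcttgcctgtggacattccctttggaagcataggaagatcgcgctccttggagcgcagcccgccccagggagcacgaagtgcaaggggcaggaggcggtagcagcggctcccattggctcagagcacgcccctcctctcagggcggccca
Slc16a1, chr3:104638414-104638663, plus strand: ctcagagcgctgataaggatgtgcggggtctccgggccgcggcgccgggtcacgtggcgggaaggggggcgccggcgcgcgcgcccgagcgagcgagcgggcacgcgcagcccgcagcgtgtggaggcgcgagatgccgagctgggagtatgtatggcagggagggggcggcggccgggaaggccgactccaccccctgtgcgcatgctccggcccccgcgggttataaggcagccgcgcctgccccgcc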

How the data were processed

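Total liver RNA (250 ng per sample, labelled with the Ambion WT Expression Kit, per the labels' protocols) was measured on 10 arrays. The authors deposited log2 levels, 1 per probe set and array, which per the submitters' processing notes come from Affymetrix Expression Console; the normalization step is not given in the sources. No quartile differed by more than 0.05 between arrays. Scanner output and scan dates were not used here, so batches could not be examined, and the number of arrays limits the precision.

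Of 41345 probe sets, 23521 had 1 gene symbol, 1814 several and 16010 none in the platform annotation; genes were named from the first kind. The genotypes were compared in limma 3.58.1 (R 4.3.3; lmFit and eBayes, two-sided, group as the only term, 8 residual and 3.96 prior degrees of freedom), with Benjamini-Hochberg adjustment over the 25335 probe sets with a symbol. The fit was tested on simulated data for this comparison: a true log2 shift of 0.3 was called for 44.8% of 67 probe sets, one of 0.5 for 92.5% of 67 and one of 1 for 100% of 66. The simulated noise was normal and independent between probe sets and arrays, unlike shifts shared by an array. The shares are for probe sets drawn from the whole array, where the median SE was 0.06. They do not hold for members with a larger SE, such as Pdk4 (0.19) and Vnn1 (0.13).

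Members and lists were chosen with earlier results of these data known. Levels in every array are given for members with an unadjusted p under 0.05, the member of lowest p in each step, and Ppara, Fgf21, Cpt1a, Cpt2, Acadm, Ehhadh, Acox2, Pdk4 and Bdh1; of the further pathway genes, those called and the 4 of lowest p. Acot2, Hadhb and the width of ±0.25 for narrow intervals were chosen after values were seen. Alternatives changed the moderation, weights, normalization, filter, probe sets tested, covariates, replicate block, threshold and arrays. The covariate of olfactory receptor probe sets and the fit without 4 arrays were chosen after seeing the data.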

Additional observations from a re-analysis of the deposited data

Results flagged for a closer look

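In each group of 5 arrays, a single array was looked for whose gap to its nearest neighbour took up more than 0.71 of the group's range. Of 92 groups examined, 6 held such an array, and chance gives about 1 in 20.

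Creb3l3 stood at 11.77 in wild-type replicate 5, below the other wild-type arrays at 12.03 to 12.07. Decr1 stood at 10.65 in the same array, below the others at 10.72 to 10.75. Cpt1a stood at 12.90 in double knockout replicate 4, below the rest of its group at 13.03 to 13.06. Acadvl stood at 11.03 in double knockout replicate 3, above the others at 10.91 to 10.94. Acot1 stood at 10.36 in double knockout replicate 5, above the others at 10.03 to 10.11. Bdh2 stood at 8.33 in wild-type replicate 4, above the others at 7.86 to 7.94.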

How the results depend on the processing

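The 8 members with an unadjusted p under 0.05 kept their sign in all 24 alternatives, while 11 of the other 34 members changed sign in at least 1 (40 of 1007 member values). This contrast follows from choosing the 8 by their low p in the same arrays. Several alternatives, such as the intensity trend, robust moderation and the filter, leave the difference itself unchanged and so cannot change a sign. The count of called members, 0, became 1 with the pancreas marker covariate and at an adjusted p under 0.1 (Vnn1 in both), and ran from 0 to 1 without single arrays. The count at an unadjusted p under 0.05, 8, became 4 with the olfactory receptor covariate and ran from 4 to 8 without single arrays. Over all probe sets the share was 11.3% with that covariate and 12.6% to 15.3% without single arrays. Members with a higher mean ran from 18 to 23 without single arrays. The count of further pathway genes called, 1, became 2 with an intensity trend, robust moderation, array weights, the filter on low levels or only probe sets with 1 symbol (Bdh2 being added), and 3 at an adjusted p under 0.1. It became 0 with every probe set tested, the replicate block, any of the 3 covariates, an adjusted p under 0.01 or when the 4 arrays richest in pancreas markers were left out, and ran from 0 to 1 without single arrays. The cause was not tested.

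Replicate numbers occur in both groups, but same-numbered arrays deviated together in only 1 of 5 cases above 0.1 (correlations from -0.48 to 0.13), and for 0 of 5 did the best partner carry its own number. With the replicate block 0 members were called and 8 had an unadjusted p under 0.05, beside 13.9% of all probe sets. In all 76 probe sets were called with the block, against 224 without it.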
